A study of Drosophila melanogaster with 103 samples.

Results

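H2AK118ub1 domains without H3K27me3 are peaks called for mono-ubiquitinated histone H2A that share no base with a peak called for trimethylated lysine 27 of histone H3 in the same cell line. They were selected on those measured peak calls: every H2AK118ub1 peak with 0 bp of overlap with the H3K27me3 list of its line was kept. This left 3252 of 4174 H2AK118ub1 domains in D17, 670 of 1244 in Kc167 and 1203 of 2502 in S2, which is 5125 of 7920 over the 3 lines.

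The study mapped Polycomb group (PcG) proteins and related factors by chromatin immunoprecipitation and sequencing in Drosophila melanogaster cell lines, with 103 libraries in all. D17 (ML-DmD17-c3 in the labels, a line grown from larval imaginal discs) gave 41 libraries, S2 (S2-DRSC, embryonic, with features of blood cells) gave 41 and Kc167, also embryonic, gave 21. None of the lines was treated, each is a single cultured line, and no genotype is given for them. Each antibody had 2 replicate libraries per line from separately fixed flasks, beside 1 input. Markers of the tissues named for the lines went partly against D17 and partly with it, and the blood gene NimC1 went partly against S2. Of 4 wing disc genes, vg, nub and Dll lay wholly under H3K27me3 in each of the 3 lines. The remaining gene, ap, was under it for 13.6% in D17, against 97.4% in Kc167 and 92.8% in S2. H3K36me3 lay over 7.28% of ap in D17 and over none of it in the other lines. Of 7 blood cell genes 5 (srp, ush, Hml, Pxn and crq) carried H3K36me3 in each of the 3 lines, D17 included. The other 2 blood genes, NimC1 and He, had no H3K36me3 in any line. In S2 NimC1 lay under H3K27me3 for 62.6% and under H3K27ac for 9.66%, and in D17 and Kc167 under neither.

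Polycomb repressive complex 1 (PRC1) carries the ligase that ubiquitinates H2A, and Polycomb repressive complex 2 (PRC2) carries the methyltransferase E(z), which writes H3K27me3. In canonical PRC1, Pc binds H3K27me3 through its chromodomain, Ph can polymerise through its SAM domain, and Psc works with the ligase subunit. Variant PRC1 complexes, built with RYBP or Kdm2, ubiquitinate H2A without needing Pc, and the deubiquitinase formed by calypso and Asx removes the mark. H3K27ac occupies the residue that PRC2 methylates and marks active promoters and enhancers, while H3K36me3 covers the bodies of transcribed genes.

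The deposited data are 50 peak lists, 1 per antibody and line, in build dm6, and hold no values per replicate. Library depth is therefore unknown, and none of the differences below can be compared with the spread of replicates. Differences were therefore described and not tested. Percentages of domains are followed in brackets by exact (Clopper-Pearson) 95% intervals, which cover counting error only and treat domains as independent. Overlap meant at least 1 bp unless stated. The folds are the authors' enrichments and were used within a list.

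The smallest overlap among the domains left out was 101 bp in D17, 48 bp in Kc167 and 105 bp in S2, and the smallest gap among those kept was 1 bp, 55 bp and 325 bp. Within 5 kb of an H3K27me3 peak lay 176 of the kept domains in D17 (5.41%), 117 in Kc167 (17.5%) and 167 in S2 (13.9%). The median gap was 67.3 kb in D17, 19.8 kb in Kc167 and 21.9 kb in S2. Most kept domains thus lay further than 5 kb from any H3K27me3 peak. The numbers in the peak names skip in places, so peaks may have been removed from the H3K27me3 lists, and 50 kept domains in D17, 9 in Kc167 and 31 in S2 lay at such a skip.

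The domains were a majority of the D17 list at 77.9% (76.6 to 79.2), against 53.9% in Kc167 (51.0 to 56.7) and 48.1% in S2 (46.1 to 50.1). They covered 25.5 Mb in D17, 6.67 Mb in Kc167 and 5.71 Mb in S2, or 18.6%, 4.86% and 4.15% of the genome. The D17 H2AK118ub1 list was the longest, and its H3K27me3 list, with 17.6 Mb, was shorter than that of Kc167 (23.3 Mb) and S2 (26.2 Mb). When each H2AK118ub1 list was shortened to the length of the Kc167 list by score, the share in D17 was 74.0%. Seen from the other mark, 61.6% of the H3K27me3 length in D17 lay under H2AK118ub1, but 21.6% in Kc167 and 29.6% in S2, so each mark often stood without the other.

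Domains without H3K27me3 were narrower than those with it. The median width was 5.09 kb versus 7.57 kb in D17, 7.16 kb versus 11.9 kb in Kc167 and 3.19 kb versus 4.49 kb in S2. A width of 10 kb or more was reached by 736 of the domains without H3K27me3 in D17 (22.6%), 242 in Kc167 (36.1%) and 109 in S2 (9.06%). Their median fold was close to that of the others, at 1.61 versus 1.65 in D17, 1.57 versus 1.58 in Kc167 and 1.57 versus 1.59 in S2. The lowest fold was 1.5 in each list, so all these medians lay near that floor. The highest folds were 3.00 versus 3.02, 1.93 versus 2.49 and 2.58 versus 2.92. A fold of 2 or more was found in 105 domains without H3K27me3 in D17 (3.23%), against 113 of the 922 with it (12.3%). In Kc167 these shares were 0% against 1.05%, and in S2 1.33% against 2.23%.

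**Figure D1:**
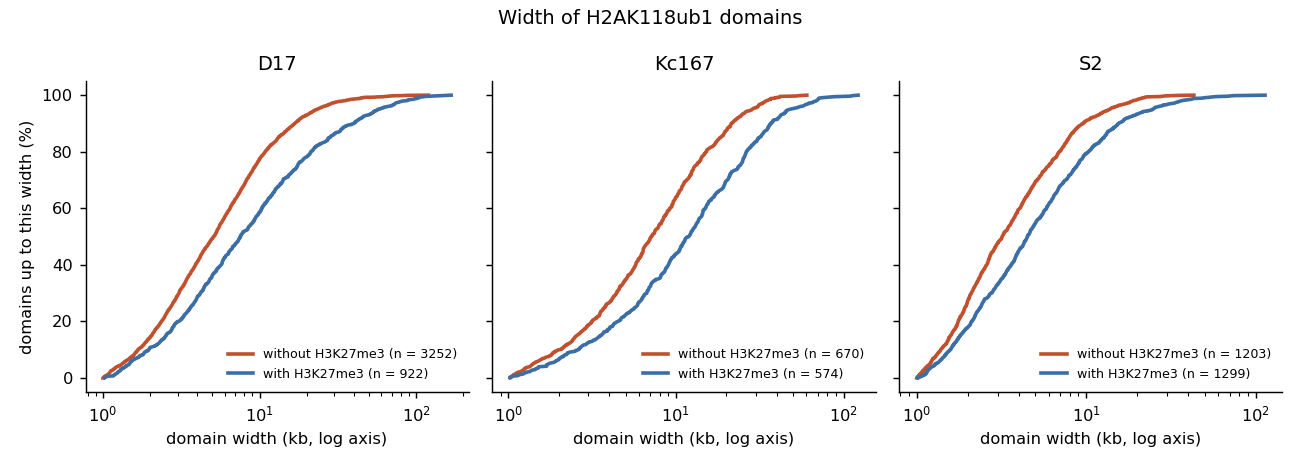
Cumulative share of H2AK118ub1 domains (%, vertical axis) by width (kb, log axis) in each line, for domains without and with H3K27me3. The curve of the domains without H3K27me3 lies to the left in each line, with medians of 5.09, 7.16 and 3.19 kb against 7.57, 11.9 and 4.49 kb.

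In D17 the highest fold, 3.00, lay over Hs6st, a heparan sulfate 6-O-sulfotransferase, and mira, which encodes an adaptor of dividing neural stem cells (chromosome 3R, 19930908 to 19940069). That 9.16 kb domain carried H3K27ac, H3K36me3, Ph and Pho in D17, while H3K27me3 covered 59.1% of it in Kc167 and 58.7% in S2. The next D17 domains were within CG15465 and touching rg (fold 2.90), an anchor protein for protein kinase A, over and beside the F-box gene Ppa (2.58), within the hexokinase gene Hex-A (2.53) and within SNF4Agamma (2.49), a subunit of the energy-sensing kinase AMPK. All 5 had H3K27ac, Ph and Pho peaks and none had Pc.

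In Kc167 the leading domain lay over CG4199 (fold 1.93, chromosome X, 2066735 to 2072670). It was followed by the domains of ATPCL (1.92), which makes cytosolic acetyl-CoA, rgr and Lnpk (1.91), Ctps (1.90), the CTP synthase, and CG3764 (1.90). All 5 carried H3K27ac, H3K36me3 and Ph, and 4 of them also Pc. In S2 the highest folds belonged to short domains inside RhoGAP18B (2.58), Pits (2.44) and ftz-f1 (2.17), the last a nuclear receptor gene of the ecdysone cascade, and in heca (2.40). The fourth of these S2 domains by fold, 2.28, touched no protein-coding gene (chromosome 3R, 7399245 to 7403195) and had Ph, Pho and Pcl peaks in S2 and H3K27me3 in D17.

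The widest domains in D17 spanned 120 kb over side-V and 10 neighbours, 98.7 kb at robo2 (an axon guidance receptor), 88.3 kb over DAAM and Atf3, 87.5 kb at dally, a glypican that carries morphogens, and 84.3 kb around the aldehyde oxidase cluster AOX1 to AOX4. The block over DAAM and Atf3 lay at a skip in the H3K27me3 peak numbers. Kc167 had 60.4 kb within bun, 54.6 kb within mtgo, 52.1 kb at Pdp1, a bZIP gene of the circadian clock, 41.7 kb at rgn and 41.6 kb within pigs. In S2 the widest reached 43.1 kb over kay, the Drosophila Fos, 34.8 kb at Svil, 32.2 kb over spg and Apc, 29.3 kb at CG6006 and 28.8 kb at prage. All 15 of these blocks held H3K27ac and Ph, but they were picked as the widest, and a wider domain meets more peaks. Among all D17 domains without H3K27me3, H3K27ac was over 33.8% of those under 2 kb and 57.7% of those of 4 kb and over. For Ph these shares were 8.39% and 29.8%.

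H3K27ac was over a larger share of the domains without H3K27me3 than of those with it in each line. In D17 1561 of 3252 had an H3K27ac peak, or 48.0% (46.3 to 49.7), against 29.8% (26.9 to 32.9). Kc167 had 85.7% (82.8 to 88.2) against 61.7% (57.6 to 65.7), and S2 had 56.3% (53.4 to 59.1) against 21.5% (19.3 to 23.8). The same order was found among domains under 2 kb, of 2 to 4 kb and of 4 kb and over in each line. Under 2 kb, for example, the H3K27ac shares were 33.8% versus 8.08% in D17, 63.6% versus 7.89% in Kc167 and 48.3% versus 4.31% in S2.

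H3K36me3 followed the same pattern, with 32.7% (31.1 to 34.3) versus 19.3% (16.8 to 22.0) in D17, 52.8% (49.0 to 56.7) versus 27.2% (23.6 to 31.0) in Kc167 and 43.3% (40.5 to 46.2) versus 12.8% (11.0 to 14.7) in S2. Where H3K36me3 had to cover at least 50% of the domain, the shares in domains without H3K27me3 fell to 17%, 7.61% and 28.4%, so in Kc167 the mark mostly touched part of a domain. H3K36me2, set in flies by enzymes such as ash1 and mapped in D17 and S2, was over 22.7% against 8.35% in D17 and 59.6% against 25.3% in S2. H3K4me3, the promoter mark, was over 21.3% against 10.2% in D17 and 21.7% against 6.93% in S2. H3K4me2 was the exception in D17, with 59.3% (57.6 to 61.0) against 63.0% (59.8 to 66.1), while S2 had 50.3% against 29.7%.

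Over all widths, PcG proteins lay over smaller shares of the domains without H3K27me3, and the gap was wide for Pc, which kept this order in each width class of each line. Pc was over 6.12% (5.32 to 7.0) of them in D17 against 36.8% (33.6 to 40.0), and over 5.07% (3.90 to 6.47) in S2 against 23.3% (21.0 to 25.7). In Kc167 it was over 66.1% (62.4 to 69.7) against 82.9% (79.6 to 85.9), where the Pc list held 6298 peaks against 2529 in D17 and 2387 in S2. Scm, which links PRC1 to other PcG complexes, was at 13.9% against 46.0% in D17 and 4.41% against 25.5% in S2. The DNA-binding Pho was at 15.4% versus 33.4% in D17, 51.8% versus 69.5% in Kc167 and 8.40% versus 20.3% in S2. Sfmbt, the partner of Pho, was at 11.8% versus 28.1% in D17 and 17.9% versus 19.7% in S2, where the order turned at 2 to 4 kb (12.1% versus 6.80%).

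Ph differed by fewer percentage points over all widths, and in D17 its order depended on width. It was over 22.4% (20.9 to 23.8) of the domains without H3K27me3 in D17 against 30.8% (27.8 to 33.9), 79.7% (76.5 to 82.7) in Kc167 against 86.2% (83.1 to 88.9) and 20.3% (18.0 to 22.7) in S2 against 27.6% (25.1 to 30.1). In D17 the Ph share was higher without H3K27me3 under 2 kb (8.39% versus 3.03%) and at 2 to 4 kb (13.4% versus 8.59%), and lower at 4 kb and over (29.8% versus 40.5%). In Kc167 and S2 the Ph share was lower without H3K27me3 in each width class. Ph without Pc was found over more of them, at 18.8% versus 5.21% in D17, 17.3% versus 6.79% in Kc167 and 16.7% versus 12.7% in S2. Psc, the third PRC1 protein mapped, was at 10.8% versus 35.7% in D17, 42.8% versus 67.9% in Kc167 and 10.5% versus 21.6% in S2. Psc under 2 kb in D17 was at 3.87% versus 3.03%. At least 1 of Pc, Ph and Psc was over 28.8% (27.3 to 30.4) in D17, 84.0% (81.0 to 86.7) in Kc167 and 25.4% (22.9 to 27.9) in S2, but all 3 were over 2.55%, 38.1% and 2.24%. With equal H2AK118ub1 list lengths the share with at least 1 was 53.6% in D17, closer to Kc167.

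The PRC2 proteins were present at some of these domains although their product was not called there. E(z) was over 16.2% in D17 and 11.2% in S2, against 25.1% and 19.9% with H3K27me3, and Pcl over 20.7% in D17 and 63.9% in S2, against 35.9% and 89.6%. By length in D17, Pcl covered 2.50% of the domains without H3K27me3, near its 2.36% of the genome, and E(z) covered 1.82% against 1.27%. In D17 the E(z) order turned among narrow domains, with 5.81% versus 2.02% under 2 kb and 7.74% versus 7.36% at 2 to 4 kb. The Pcl list of S2 was long, with 15159 peaks against 4065 in D17. The recruiters GAF and Spps were over 28.1% and 27.7% in D17 and 28.4% and 21.4% in S2, and Spps over 81.8% in Kc167. GAF was at 31.1% and 23.9% in the D17 and S2 domains with H3K27me3.

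**Figure D2:**
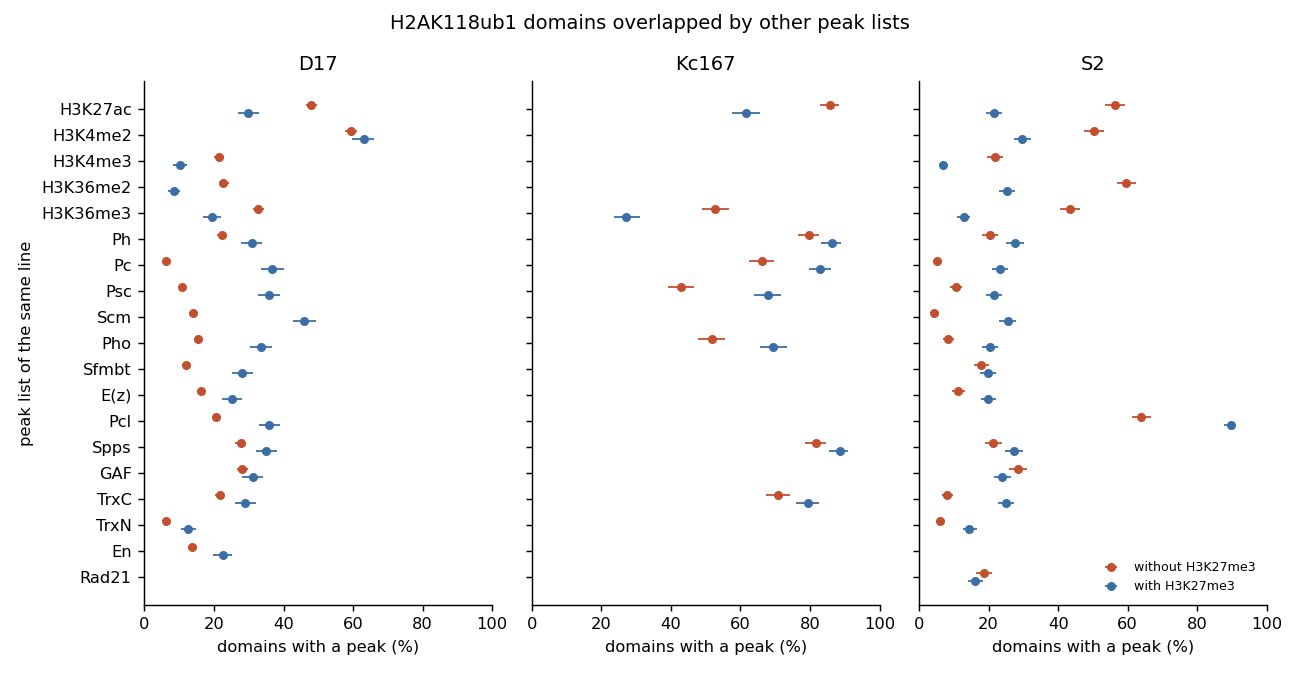
Share of H2AK118ub1 domains (%, horizontal axis) with a peak of each other list of the same line, without and with H3K27me3, with bars for exact 95% intervals. H3K27ac and H3K36me3 lie higher without H3K27me3 in each line and Pc lies lower, while lists not mapped in a line have no point.

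Measured by length in place of counts, H3K27ac covered 17.4% of the domains in D17, 40.3% in Kc167 and 24.3% in S2, all above its share of the genome, which was 10.8%, 9.98% and 8.79%. H3K36me3 did not stand above its genome share in D17, with 16.4% against 17.5%, or in Kc167, with 12.8% against 15.7%, but did in S2 with 23.5% against 15%. H3K36me2 covered 43.7% of their length in S2 against 18.6% of the genome, and 12.7% against 9.26% in D17. Pc covered 1.00% of their length in D17 and 1.18% in S2, below its genome shares of 3.20% and 2.69%, whereas Ph covered 3.25% and 3.22%, above 2.21% and 1.69%. In Kc167 both stood above the genome, Pc with 11.2% against 5.08% and Ph with 15.2% against 3.57%.

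**Figure D3:**
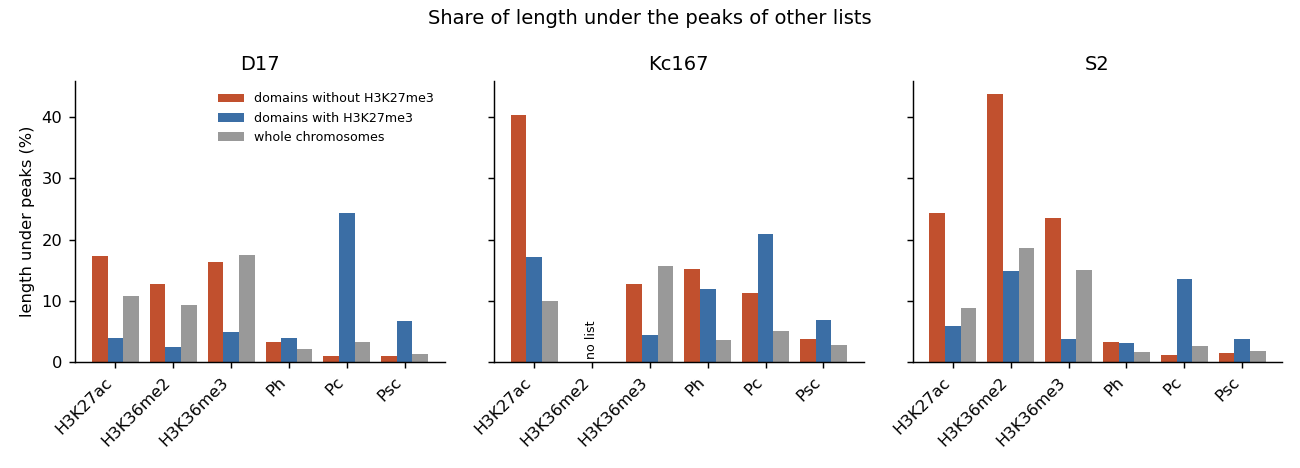
Share of length (%, vertical axis) under the peaks of 6 lists for H2AK118ub1 domains without H3K27me3, those with it, and whole chromosomes, in each line. H3K27ac reaches 17.4%, 40.3% and 24.3% in the domains without H3K27me3, and Pc falls below the chromosome level there in D17 and S2.

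The domains fell into unlike chromatin classes. An active mark (H3K27ac or H3K36me3) together with a PRC1 protein was found over 23.6% in D17, 78.1% in Kc167 and 20.0% in S2. An active mark with no PRC1 protein was over 30.3%, 9.40% and 45.7%, and a PRC1 protein with no active mark over 5.26%, 5.97% and 5.40%. Neither was over 40.9% in D17 (39.2 to 42.6), 6.57% in Kc167 (4.81 to 8.72) and 28.9% in S2 (26.4 to 31.6). Among domains with H3K27me3 the class with neither held 40.8%, 8.19% and 48.8%. Without H3K27me3 it was thus about as large in D17 and Kc167 and smaller in S2. These shares are over all widths, and the domains without H3K27me3 were narrower. Of the domains with H3K27me3, 24.6%, 62.0% and 15.1% had both. An active mark alone was over 10.7%, 0.871% and 11.9% of them, and a PRC1 protein alone over 23.9%, 28.9% and 24.2%. Without H3K27me3, the share with neither moved with list length. With equal lengths it was 17.6% in D17 and 18.4% in S2. In the higher-scoring 50% of each list it was 26.4% in D17, 1.74% in Kc167 and 18.5% in S2. Domains with both were the widest, with medians of 9.53, 8.99 and 6.73 kb, and those with neither the narrowest, with 3.67, 2.44 and 2.42 kb. No peak of any other mapped list lay over 698 D17 domains (21.5%), 38 in Kc167 (5.67%) and 104 in S2 (8.65%), and the shares with H3K27me3 were 16.3%, 6.79% and 7.62%. Kc167 had 10 lists in all, D17 and S2 had 20 each.

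Most of the domains lay over genes. A protein-coding gene was touched by 88.7% (87.5 to 89.8) in D17, 95.1% (93.2 to 96.6) in Kc167 and 93.6% (92.1 to 94.9) in S2, against 82.5%, 89.7% and 86.8% of the domains with H3K27me3. Genes held 74.4%, 89.9% and 87.5% of their length, against 54.5%, 72.0% and 69.3% with H3K27me3 and 66.2% of the genome. They lay wholly within a single gene in 54.3%, 61.8% and 70.7% of cases, against 31.9%, 29.6% and 47.3%. Of 13946 protein-coding genes, 2584 had at least 50% of the body under such domains in D17 (18.5%), 585 in Kc167 (4.19%) and 573 in S2 (4.11%).

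H3K36me3 covered a smaller share of these genes than of genes in general. H3K36me3 lay over at least 50% of the body of 28.0% of them in D17, 23.1% in Kc167 and 30.4% in S2, against 45.7%, 42.4% and 41.7% of all protein-coding genes. An H3K27ac peak within 500 bp of either gene end was found for 43.4% in D17 against 54.7% of all genes, 80.2% in Kc167 against 53.5% and 57.1% in S2 against 52.1%. In Kc167 the covered genes were long, with a median of 5.82 kb against 2.16 kb over all genes, while D17 (2.10 kb) and S2 (2.50 kb) were near that median.

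Signalling and ecdysone response genes had the highest covered shares in D17 among the 11 lists examined. These lists were chosen with earlier results of these data known, so the ranking is a description only. In D17 17 of 35 signalling genes (48.6%) and 9 of 17 ecdysone response genes (52.9%) were covered, beside 18.5% of all genes, and these counts became 13 and 6 beside 6.54% when the H2AK118ub1 lists had equal lengths. In Kc167 6 of 35 signalling genes were covered (17.1%), beside 4.19% of all genes. In S2 2 of 35 were (5.71%), near the 4.11% of all genes, and 0 of 35 with equal list lengths. Of the 17 ecdysone response genes 1 was covered in Kc167 and 1 in S2 (5.88% in each), near the shares of all genes. No homeotic gene of 8 and no eye or head gene of 9 was covered in any line. Homeotic genes were under H3K27me3 for at least 50% in D17 (8 of 8), Kc167 (6 of 8) and S2 (8 of 8). So were 7, 6 and 7 of the 9 eye and head genes. The selection leaves out domains that touch H3K27me3, so such genes could hardly be covered. Their counts of 0 are tied to that rule and are not a separate result. In D17 the covered counts were 4 of 30 segmentation genes, 4 of 35 appendage genes, 6 of 29 neural and muscle genes, 5 of 19 blood cell genes, 4 of 32 PcG and trithorax group genes, 4 of 24 cell cycle genes and 4 of 27 housekeeping genes. These shares, 11.4% to 26.3%, were near the 18.5% of all genes. However, 23 of the 30 segmentation genes and 21 of the 35 appendage genes were at least 50% under H3K27me3 in D17. Among all genes that share was 7.65%. The rule thus holds down the shares of these 2 lists also, and their places among the 11 lists are partly tied to it. Outside the signalling list, Kc167 had Pxn, ftz-f1 and E2f1 covered and S2 had Pxn, ImpL2 and ptc, genes named here after their values were seen.

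**Figure D4:**
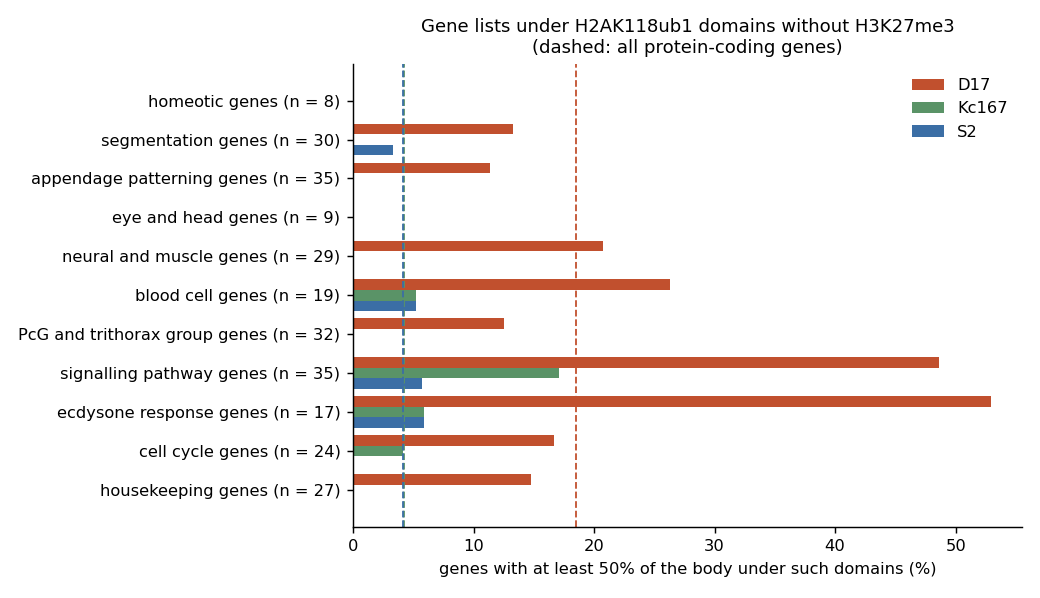
Share of each gene list (%, horizontal axis) with at least 50% of the gene body under H2AK118ub1 domains without H3K27me3, by line, with the number of genes matched and dashed lines for all protein-coding genes (18.5%, 4.19% and 4.11%). The signalling and ecdysone response lists reach 48.6% and 52.9% in D17.

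Among PcG genes, the polyhomeotic pair was covered in D17, ph-d for 76.4% of its body (chromosome X, 2115727 to 2123286) and ph-p for 75.8% (2126210 to 2138371). Both carried Pc, Ph, Psc and Pho there. Neither gene had H3K27me3 in D17 or Kc167, and ph-p had it over 21.1% in S2. They are tandem duplicates of similar sequence, so reads may be split between them. RYBP, a subunit of variant PRC1, was covered for 100% in D17 with H3K27ac and H3K36me3, while in Kc167 and S2 it lay under H3K27me3 and H2AK118ub1 for 100%, with H3K36me3 over 82.9% and 70.5%. wds, a subunit shared by histone methyltransferase complexes, was covered for 100% in D17 and not touched by either PcG mark in Kc167 or S2.

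Of the segmentation genes, ptc, the Hedgehog receptor, was covered for 94.7% in D17 and 92.5% in S2 with H3K27ac and H3K36me3, but in Kc167 H3K27me3 lay over 69.8% of it. nkd, a feedback inhibitor of Wnt signalling, was covered for 100% in D17 inside a 62.7 kb domain and was under H3K27me3 for 100% in Kc167. In S2 nkd was covered for 38.6% by such domains and lay under H3K27me3 for 26.1%. hry (hairy), a pair-rule repressor, was covered for 100% in D17 with fold 2.12 and lay in domains that touched H3K27me3 in the other lines, although no H3K27me3 lay on the gene itself. hkb, a terminal gap gene, was covered for 64.6% in D17, under H3K27me3 for 100% in S2 and under neither mark in Kc167.

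Appendage genes covered in D17 were Wnt4 (97.5%), the aristaless homeobox gene al (98.9%), ct (66.0%), the cut homeobox gene, and tio (61.1%), a zinc finger gene paired with teashirt. H3K27me3 lay over 78.4% of Wnt4 and 100% of al in S2, and over 100% of tio in Kc167. No H3K27me3 was called on Wnt4 or al in Kc167, or on tio in S2, where tio lay at a skip in the peak numbers. The body of ct was covered for 40.1% in Kc167 and 16.7% in S2 by the same kind of domain, but in Kc167 another 31.5% lay under H2AK118ub1 domains with H3K27me3, and H3K27me3 itself lay over 23.1%. al and Wnt4 had no H3K36me3 in D17, whereas tio had it over 67.2% and ct over 21.1%.

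Several other genes, chosen after their values were seen, show how a gene could differ between lines. Egfr, the epidermal growth factor receptor (chromosome 2R, 21522420 to 21559977), was covered for 93.1% in D17 inside a 70.9 kb domain with H3K27ac, H3K36me3 and Ph, and was under H3K27me3 for 100% in Kc167 and S2. The proneural gene ato, the related cato and the paired-box gene Poxn were each covered for 100% in D17 and under H3K27me3 for 100% in Kc167 and S2, and had no H3K27ac or H3K36me3 in D17. By contrast, wts, the core kinase of the Hippo pathway, was covered in all 3 lines, for 89.9%, 92.3% and 64.0%, with H3K27ac, H3K36me3 and Ph in each. Socs36E, Stat92E, aop and aos, regulators of JAK/STAT and Egfr signalling, were covered in D17 and Kc167.

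Many D17 domains lay in H3K27me3 territory of another line, and few Kc167 or S2 domains lay in that of D17. Of the 3252, 980 were under H3K27me3 in Kc167, or 30.1% (28.6 to 31.7), and 956 in S2, or 29.4% (27.8 to 31.0). By length this was 26.3% and 27%, beside 17% and 19.1% of the genome. Kc167 domains were under H3K27me3 in D17 in 2.84% of cases (1.72 to 4.39) and in S2 in 6.42% (4.68 to 8.55). S2 domains were so in D17 in 5.57% (4.34 to 7.02) and in Kc167 in 20.0% (17.8 to 22.4). In D17 the shorter H3K27me3 list, at 12.8% of the genome, moves with this difference, and its part was not tested.

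The genes behaved alike. Of the 2584 genes covered in D17, 773 were at least 50% under H3K27me3 in Kc167 (29.9%) and 735 in S2 (28.4%), 376 of them in both, beside 15.4% and 16.1% of all genes. Of the 585 in Kc167, 5 were so in D17 (0.855%) and 15 in S2 (2.56%). Of the 573 in S2, 23 were so in D17 (4.01%) and 140 in Kc167 (24.4%). In D17 7.65% of all genes were under H3K27me3 in this way. H3K27me3 in at least 1 other line was found for 3 of the 4 covered segmentation genes, 3 of the 4 appendage genes and 5 of the 6 neural and muscle genes, beside 43.8% of the 2584. It was found for 4 of the 17 signalling genes and 3 of the 9 ecdysone response genes. The first lists are rich in H3K27me3 as a whole, with 26 of 30 segmentation genes under it in Kc167 and 25 of 30 in S2.

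H2AK118ub1 itself recurred in part. D17 domains were under H2AK118ub1 in Kc167 in 33.0% of cases (31.4 to 34.7) and in S2 in 38.9% (37.2 to 40.6). Kc167 domains were so in D17 in 63.6% (59.8 to 67.2) and in S2 in 37.6% (33.9 to 41.4), and S2 domains in D17 in 68.8% (66.1 to 71.4) and in Kc167 in 41.4% (38.6 to 44.2). The D17 list covers 28.8% of the genome, against 12% in Kc167 and 11.3% in S2, and a longer list meets more domains. With D17 domains cut by score to equal list lengths, but the lists of Kc167 and S2 kept whole, the values became 57.1% and 55.4%. Kc167 domains in D17 stayed at 63.6%, because the D17 list that they met was not shortened. The part of list length in these shares was therefore not tested.

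Among D17 domains, those with both an active mark and a PRC1 protein met marks of the other lines more often than those with neither. They were also wider, with medians of 9.53 and 3.67 kb, and a wider domain meets more peaks, so the part of width was not tested. D17 domains with both had H2AK118ub1 in Kc167 in 61.4% of cases and in S2 in 56.1%, H3K27ac in 70.4% and 74.6%, and a PRC1 protein in 88.0% and 74.8%. D17 domains with neither had H2AK118ub1 in 13.5% and 25.6%, H3K27ac in 3.61% and 8.57%, and neither H2AK118ub1 nor H3K27me3 in 67.4% and 56.8%. The other classes lay between, with H2AK118ub1 in 38.4% and 44.2% of D17 domains with an active mark only and in 26.9% and 35.1% of those with PRC1 only. Kc167 domains with both had H2AK118ub1 in 67.7% in D17 and 41.7% in S2, against 54.5% and 15.9% of the 44 with neither. For the 698 D17 domains with no other peak, H3K27me3 was present in 22.6% in Kc167 and 28.4% in S2. In S2 the domains with neither an active mark nor PRC1 were not poor in H2AK118ub1 in D17, where 77.0% had it, against 82.5% of those with both.

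**Figure D5:**
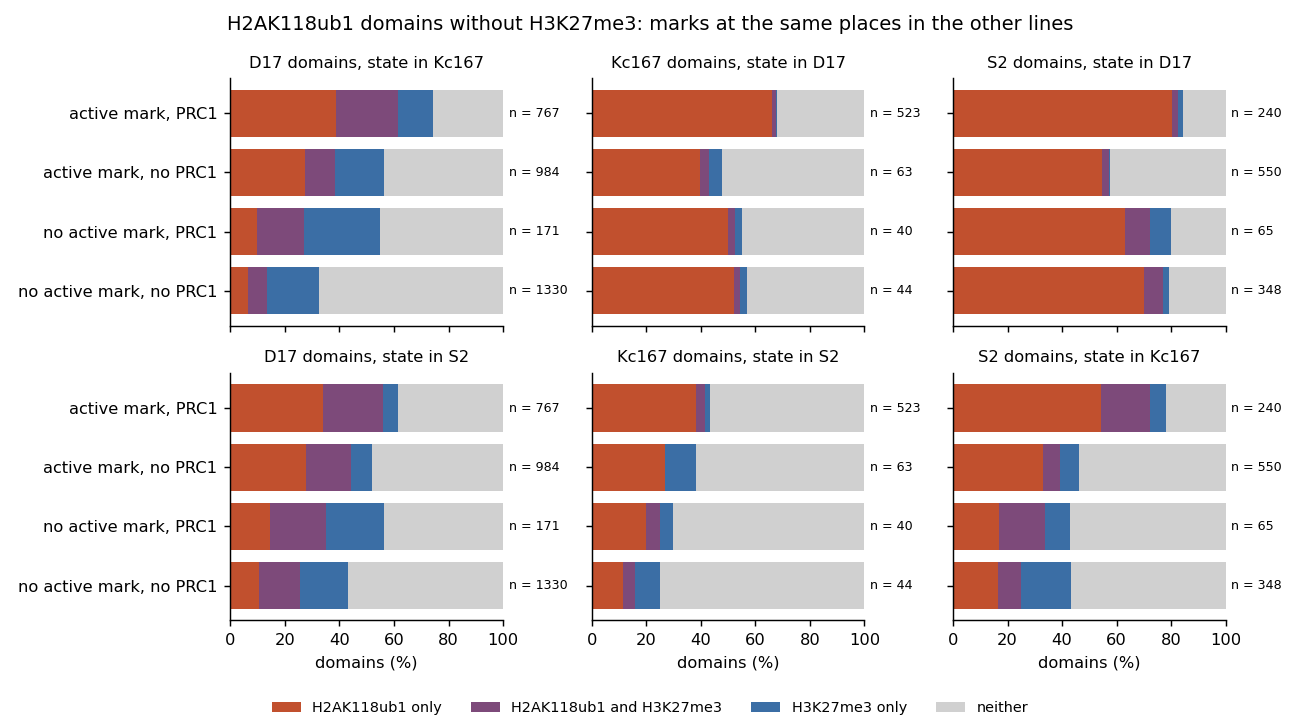
Marks in each other line at the places of H2AK118ub1 domains without H3K27me3, as shares of domains (%, horizontal axis), split by active mark (H3K27ac or H3K36me3) and PRC1 protein in the line of origin. Domains of D17 with both are under H2AK118ub1 in Kc167 in 61.4% of cases, and those with neither in 13.5%.

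Merged over lines, the domains made 3736 places, of which 188 held such a domain in all 3 lines (5.03%), 478 in D17 and S2, 207 in D17 and Kc167 and 45 in Kc167 and S2. A single line held the rest, with 2207 places in D17, 392 in S2 and 219 in Kc167. D17 supplied 3252 of the 5125 domains, S2 1203 and Kc167 670, which limits how many places all 3 lines can share. A place of a single line may still hold H2AK118ub1 together with H3K27me3 in another line. The same split was not made for all H2AK118ub1 domains. Where domains of all 3 lines overlapped base by base there were 212 stretches with 846 kb in total and a median of 2.73 kb, touching 201 protein-coding genes. H3K27ac lay over 79.2% of these stretches in D17, 69.3% in Kc167 and 76.4% in S2. Beside them stand 48.0%, 85.7% and 56.3% of all domains without H3K27me3, so the share was lower in Kc167 only. Peaks of Ph lay over 36.8%, 51.4% and 28.3%, and of Pc over 2.36%, 42.9% and 4.25%. Of all such domains Ph was over 22.4%, 79.7% and 20.3%, and Pc over 6.12%, 66.1% and 5.07%. The Ph share of the stretches was thus higher in D17 and S2 and lower in Kc167. The stretches are parts of domains, so these shares are not for like widths. Genes held 89.4% of their length.

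The longest shared stretch, 36.2 kb, lay over kay, which encodes the AP-1 subunit Fos (chromosome 3R, 29755294 to 29791487). Its domain was 41.2 kb wide with fold 1.88 in D17, 36.7 kb with 1.82 in Kc167 and 43.1 kb with 1.56 in S2, and held H3K27ac, H3K36me3, Ph and Pho in each line. The next were 22.0 kb beside Ids, a lysosomal sulfatase gene that held 6.92% of the stretch, 16.6 kb over rgr and Lnpk, 16.0 kb within CG3764 and 14.1 kb at CG6006. Then came 13.9 kb within neur, a ubiquitin ligase of the Notch pathway, 13.6 kb within chn, a zinc finger repressor of neural genes, 12.9 kb over CG33158 and aos, 12.6 kb within msn, a kinase of the JNK pathway, and 12.1 kb within fru, a transcription factor of sexual behaviour. H3K27ac lay on 9 of these 10 stretches in D17 and on all 10 in Kc167 and S2, and Ph on 9, 9 and 9. They are the longest stretches, and a longer stretch meets more peaks.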

How the data were processed

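The files are 50 peak lists of chromatin immunoprecipitation from D17, Kc167 and S2 cells, 1 per antibody and line, made from 103 libraries. Per the submitters' processing notes the tools were Trim Galore 0.6.4, Bowtie2 2.3.5.1, SAMtools 1.13, MACS2 2.2.6 and bedtools 2.29.2, with build BDGP6 (dm6). Whether a list pools its 2 replicates, and how the input was used, is not given in the sources used here. For each peak the authors deposited a −log10 q-value, a score and an enrichment ratio (the fold). Scores served to shorten lists and folds to rank domains within a list.

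Overlaps, distances, coverage and exact 95% binomial intervals were computed with Python 3.11.15, NumPy 2.4.6, SciPy 1.17.1 and pandas 2.3.3, and checked on simulated intervals. RefSeq genes (13946 protein-coding, no strand) belonged to assembly Release 6 plus ISO1 MT. Of 270 list symbols, 2 found no match (calypso and Dl). Named were, per line, the 5 highest-fold and 5 widest domains, all members of 4 lists (PcG and trithorax, homeotic, segmentation, appendage) with at least 50% of the body covered, and the 10 longest stretches shared by the lines. The members and lists were chosen with earlier results of these data known. Alternatives were another H3K27me3 tolerance or distance, shorter lists, skipped peak numbers left out, a stricter overlap rule and all 17807 genes. No sequences were used here.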

Additional observations from a re-analysis of the deposited data

How the results depend on the processing

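Alternatives moved 71 of 180 recomputed shares of domains past their counting interval and 18 of 180 gene counts by over 1.5 times, none when domains at skipped H3K27me3 numbers were left out. The order of domains with and without H3K27me3 in H3K27ac, H3K36me3, Pc and any PRC1 protein was the same in the 3 lines under each of the 6 alternatives to which it applies. The cause of each shift was not tested. Tolerating H3K27me3 under 10% of the width gave 57.9% without H3K27me3 in Kc167. Requiring a 5 kb distance gave 73.7% in D17, 44.5% in Kc167 and 41.4% in S2. With the higher-scoring 50% of each H2AK118ub1 list, D17 had 76.1% without H3K27me3. H3K27ac was then over 64.2% in D17, 94.8% in Kc167 and 67.8% in S2, H3K36me3 over 37.4%, 67.2% and 51.0%, and a PRC1 protein over 42.6%, 94.5% and 30.5%. Genes were touched by 92.8% in D17 and 95.7% in S2. D17 domains were under H2AK118ub1 in 47.4% (Kc167) and 49.8% (S2) and under H3K27me3 in 34.9% (Kc167), Kc167 domains under H2AK118ub1 in 71.3% (D17) and 43.5% (S2) and H3K27me3 in 4.64% (S2), and S2 domains under H2AK118ub1 in 46.8% (Kc167). Equal list lengths gave 74.0% without H3K27me3 in D17, H3K27ac over 74.7% (D17) and 68.1% (S2), H3K36me3 over 40.8% and 51.0%, a PRC1 protein over 53.6% and 30.6% and genes over 93.4% and 95.8%. D17 domains then had H2AK118ub1 in 57.1% (Kc167) and 55.4% (S2) and H3K27me3 in 36.4% and 27.8%, and S2 domains had H2AK118ub1 in 46.8% (Kc167). For these values the list of the other line was kept at full length. With a peak midpoint inside, or 50% of the domain under a broad peak, H3K27ac was over 45.8%, 73.3% and 49.5% in D17, Kc167 and S2, H3K36me3 over 17%, 7.61% and 28.4%, a PRC1 protein over 25.3%, 78.5% and 22.8% and genes over 79.5%, 89.6% and 89.1%. H2AK118ub1 was then at 26.0% of D17 domains in Kc167 and 26.0% in S2, 40.1% of Kc167 domains in D17 and 16.6% in S2, and 63.6% of S2 domains in D17 and 35.7% in Kc167. H3K27me3 was at 22.4% of D17 domains in Kc167 and 24.6% in S2, 1.49% of Kc167 domains in D17 and 2.99% in S2, and 14.4% of S2 domains in Kc167. Counting all genes of the table, 92.3%, 97.2% and 95.4% of domains touched one. Depth is unknown, so a domain called free of H3K27me3 may hold signal under the calling threshold, and lists of unlike length were compared between lines.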

Other observations

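The domains without H3K27me3 were spread unevenly over the chromosomes. Chromosome X held 9.10% of their length in S2 and 12.2% in D17 but 21.7% in Kc167, beside 17.1% of the genome. On chromosome 4 there were 5 in D17 and 2 in Kc167. S2 had 0 there, and the Y had 0 in each line. Copy number and the sex of the lines were not examined.

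Engrailed, the homeodomain protein mapped in D17, had 601 of its 1586 peaks (37.9%) over domains without H3K27me3 and 323 (20.4%) over domains with it, which cover 18.6% and 10.3% of the genome, so both classes held Engrailed peaks above their length to a like degree. In S2 the cohesin subunit Rad21 was over 18.6% of the domains without H3K27me3 (16.5 to 20.9, exact 95% interval) and 16.2% of those with it (14.2 to 18.3). Of the D17 Pc peaks 11.9% lay over domains without H3K27me3 and 65.5% over domains with it, and of the Ph peaks 32.9% and 17.9% did, beside the same 18.6% and 10.3% of the genome.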
